A study of Mus musculus with 12 samples.

Results

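The antioxidant and glutathione enzymes of tendon cells were taken as 51 gene symbols among the 55418 of the count table. They were chosen by name. Taken were the glutathione S-transferases with symbols of Gst followed by a, k, m, o, p, t or z and a digit. Mgst, Gpx and Prdx genes with a digit were taken as well, as were Txn1, Txn2, Txnrd1, Txnrd2, Sod1, Sod2, Sod3, Cat, Mt1 and Mt2. Symbols ending in -ps followed by a digit were left out. The rule used names only. Single cells came from uninjured, untreated Achilles tendons of mice on the C57BL/6 background, all of which carried ScxGFP, in which GFP marks cells that express Scx, a transcription factor of tendon. The study compared 6 Tnmd-/- cells, from mice in which tenomodulin, a membrane protein of tendon, was knocked out constitutively, with 6 wild-type (WT) cells, and a cell is named here by the number it was given when picked. Tnmd lies on the X chromosome, and the study's WT group could hold hemizygous males and homozygous or heterozygous females. GFP+ cells were picked with a micromanipulator after 8 h of collagenase digestion, and Smart-Seq2, which amplifies full-length transcripts without molecular tags, was used for the libraries. The study states an age of 6 months for the mice of its injury experiment and gives none separately for the cell donors. Because no label ties a cell to an animal, a genotype counted as 1 sample and no test between genotypes was made. Ranges over cells and counting intervals at 95% are given in place of a test, and the intervals cover counting error only.

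These enzymes share the handling of reactive oxygen. Superoxide dismutases turn superoxide into hydrogen peroxide, which catalase, the glutathione peroxidases and the peroxiredoxins remove. Glutathione supplies the electrons for the glutathione peroxidases and is joined to reactive compounds by the glutathione S-transferases, while thioredoxin, kept reduced by thioredoxin reductase, recharges the peroxiredoxins. Metallothioneins bind zinc and copper and are induced by metals and by stress. Tendon is a tissue with few vessels, in which fibroblasts sit between collagen fibres.

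Cells held 892713 to 13613080 counts and 1350 to 3633 genes with at least 10 counts. The 6 deepest cells, 3 of each genotype, were Tnmd-/- cells 9, 10 and 20 and WT cells 4, 5 and 10. Mitochondrial genes took 1.75% to 7.30% of counts in 11 cells and 51.8% in Tnmd-/- cell 3. Tnmd itself had 8 counts among Tnmd-/- cells and 10185 among WT cells, 99.9% of them in WT cell 14, so it did not set the other WT cells apart. Scx had 3 counts for Tnmd-/- and 2074 for WT cells. The 11 tendon fibroblast markers summed to 1696 to 87463 counts per 1000000 counts of the cell (CPM) among Tnmd-/- cells and to 31910 to 176923 CPM among WT cells, and all 11 had counts. Pooled by genotype, Dcn and Comp held 40010 and 9290 of 52152 CPM for Tnmd-/- and 56340 and 9863 of 69918 CPM for WT cells. Scx, Tnmd, Col1a1 and Mkx reached 10 counts in 0, 0, 1 and 1 Tnmd-/- cells and in 3, 1, 4 and 2 WT cells. By pooled level 9 markers were lower and 2 higher among Tnmd-/- cells, 4 of them at least 4-fold lower (32.6% of all genes). Of the markers of other cells, the 6 of red blood cells were at 0 throughout and the 7 immune markers reached at most 0.871 CPM. Of the 5 adipocyte markers, Adipoq, Lep and Cidec were at 0 in all cells, Plin1 had 3 counts, all in WT cells, and Fabp4, a fatty acid carrier, had 1387 counts (922 CPM) in Tnmd-/- cell 3, while the 5 endothelial markers summed to 30.9 CPM in Tnmd-/- cell 1, the 4 of glia to 40.5 CPM in Tnmd-/- cell 9 and the 7 of skeletal muscle to 22.6 CPM in Tnmd-/- cell 3. The 4 mural markers reached at most 0.401 CPM.

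Short control elements lie before several of these genes. Sequence of up to 250 bases before the gene start was taken from RefSeq (GRCm38.p6), which held a window for 45 of the 51 genes. The core of the metal response element was searched as TGCACNC or TGCGCNC on both strands, and the core of the antioxidant response element, the site of the transcription factor Nrf2, as TGACNNNGC or TGAGNNNGC. Metal response cores stood in 21.4% of all 32851 windows and antioxidant response cores in 23.0%. Among windows of the enzymes, 15 of 59 (25.4%) held a metal response core and 16 of 59 (27.1%) an antioxidant response core, in 13 and 15 genes. In no window did matches of both overlap. Both metallothionein windows are shown, with metal response cores in capitals. They held 1 before Mt1 (chr8:94178839-94179081, + strand) and 3 before Mt2 (chr8:94172368-94172617, + strand). These numbers depend on the annotated start at which a window ends. Bases after that start were not searched, so the numbers are not a comparison of the whole promoters. Mt2 also held an antioxidant response core, 79 bases before the start, which is left in lower case.
Mt1: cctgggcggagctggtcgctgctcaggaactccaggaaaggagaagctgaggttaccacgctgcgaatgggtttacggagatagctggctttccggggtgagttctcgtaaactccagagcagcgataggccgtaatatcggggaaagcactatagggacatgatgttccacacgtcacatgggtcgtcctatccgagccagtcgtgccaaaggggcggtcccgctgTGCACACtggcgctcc
Mt2: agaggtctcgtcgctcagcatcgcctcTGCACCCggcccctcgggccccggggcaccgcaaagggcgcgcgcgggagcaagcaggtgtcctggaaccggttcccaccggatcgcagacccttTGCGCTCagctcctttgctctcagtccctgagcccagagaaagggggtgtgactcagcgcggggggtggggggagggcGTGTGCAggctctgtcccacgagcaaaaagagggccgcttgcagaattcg

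Glutathione S-transferase genes with unlike counts between cells are shown by their antioxidant response cores, in capitals, with 10 bases on either side. These 29 bases were identical before the RefSeq starts of Gstp1 (chr19:4037968-4037996, − strand) and Gstp2 (chr19:4042292-4042320, − strand). Gstm5 held a core on its own strand (chr3:107895802-107895830) and one on the opposite strand (chr3:107895648-107895676). The GENCODE gene bounds given below differ from these starts. By them the Gstp2 site lies inside its gene, and the Gstp1 site and the same-strand Gstm5 site overlap the start of theirs. A further match before Gstp1, which began 9 bases before the start, is not shown. The windows of Gstm1, which lies in the same gene cluster as Gstm5, held no such core.
Gstp1: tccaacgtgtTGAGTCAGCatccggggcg
Gstp2: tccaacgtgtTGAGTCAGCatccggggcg
Gstm5, same strand: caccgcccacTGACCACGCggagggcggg
Gstm5, opposite strand: agttttatgtGCCAGCTCAactgtgcaac

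Of the 51 genes, 29 (56.9%) had 10 or more counts in at least 1 cell, which is here called counted in that cell, against 18.3% of all symbols. Gpx7 had 3 counts, all in WT cell 4. The other 21 had 0 counts in all 12 cells. At 88527742 counts in all this allows a level of up to 0.0339 CPM over the 12 cells, a limit that covers counting error only. These genes at 0 were Gsta3, Gsta4, Gstk1, Gstm2, Gstm3, Gstm4, Gstm6, Gstm7, Gstp3, Gstt1 to Gstt4, Mgst2, Mgst3, Gpx2, Gpx5, Gpx6, Prdx6b, Prdx2-rs3 and Txnrd2. So no theta or kappa class transferase was counted, nor was the mitochondrial thioredoxin reductase Txnrd2. Prdx2-rs3 is annotated as a pseudogene. Transcripts of 15 of the 20 coding genes at 0 shared no run of 100 bases with another gene's transcripts.

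The counted enzymes were seen in a median of 7 of 12 cells, against 2 for all genes counted in any cell. A total of 9 (Txn1, Prdx1, Sod1, Txnrd1, Gpx1, Sod3, Gpx4, Mt1 and Prdx5) had 10 or more counts in 10 or more cells, and the share of all genes with at least 20 counts that did so was 5.87%. Of these, 4 (Txn1, Prdx1, Sod1 and Txnrd1) reached 10 counts in all 12 cells, as 213 of all genes did. Gstz1 and Gsto2 were counted in 1 cell each. Of the 348 values of the 29 genes, 24.1% were 0, 20.4% lay between 1 and 9 counts, 8.91% between 10 and 99, 9.48% from 100 to below 1000 and 37.1% were at 1000 counts or more. Values at either end were thus more frequent than those between. Over all 10123 genes counted in any cell the same shares were 58.8%, 14.8%, 6.89%, 8.25% and 11.3%. Taken class by class, those from 10 to 99 and from 100 to below 1000 counts were the smallest there too. The class at 1000 counts or more held 37.1% of the values of the enzymes and 11.3% of those of all genes.

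**Figure D1:**
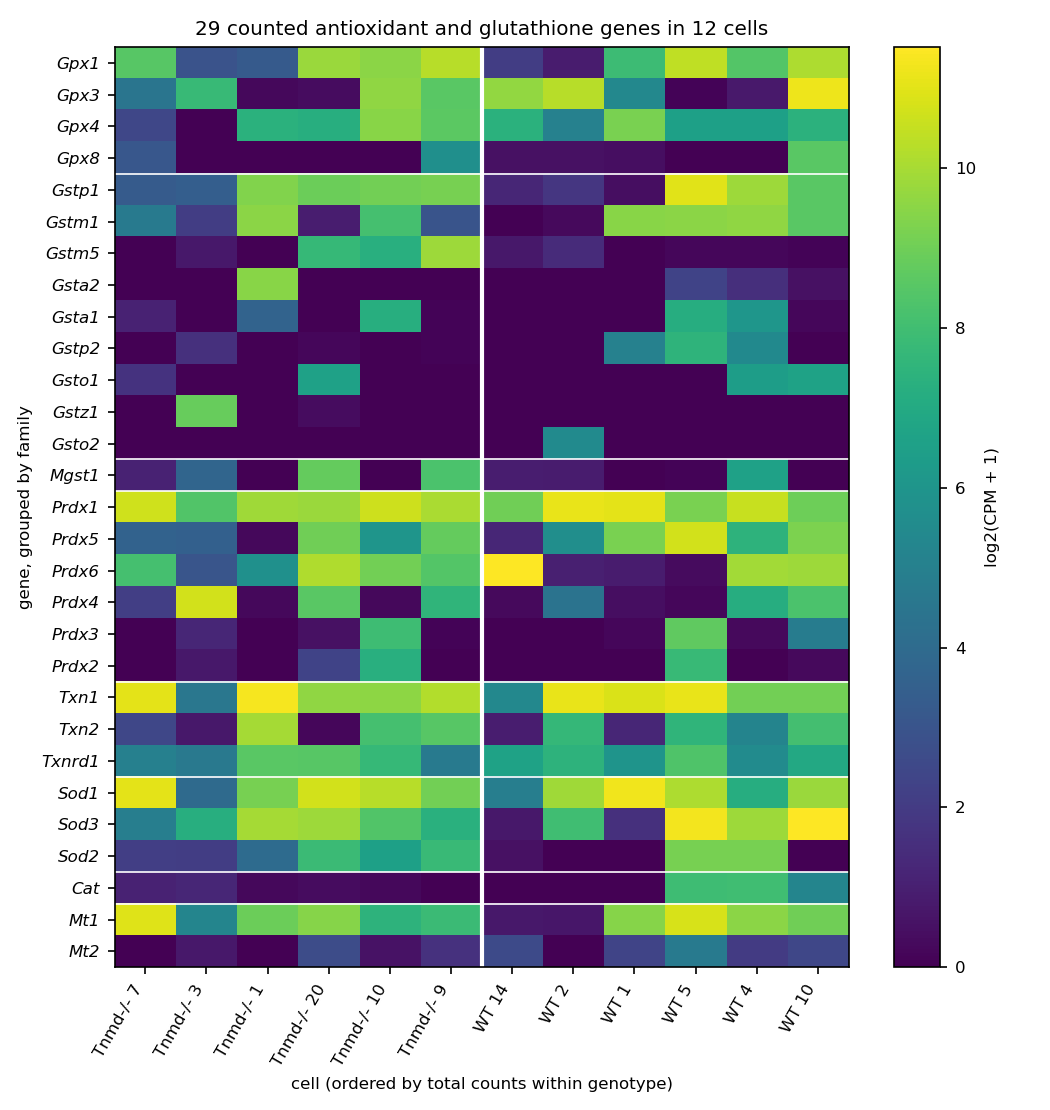
Level of the 29 counted genes as log2(CPM + 1), colour scale at right, with genes in rows by family and the 12 cells in columns, ordered by total counts within each genotype. Txn1, Prdx1, Sod1 and Txnrd1 were counted in every cell, while rows such as Gstm5, Cat and Gstp2 had high values in 3 cells and values near 0 elsewhere.

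How many of the enzymes a cell showed moved with its depth. The 6 deepest cells held 18 to 22 counted members (18 to 20 for Tnmd-/- and 20 to 22 for WT cells), and the 6 shallowest held 9 to 15 (11 to 15 and 9 to 13), so deep and shallow cells did not overlap while the genotypes did. Across the 12 cells the number followed the number of genes counted in the cell (Pearson's r = 0.90, Spearman's rho = 0.95) and the total counts (r = 0.86, rho = 0.91), given as a description over libraries that share depth and RNA quality.

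**Figure D2:**
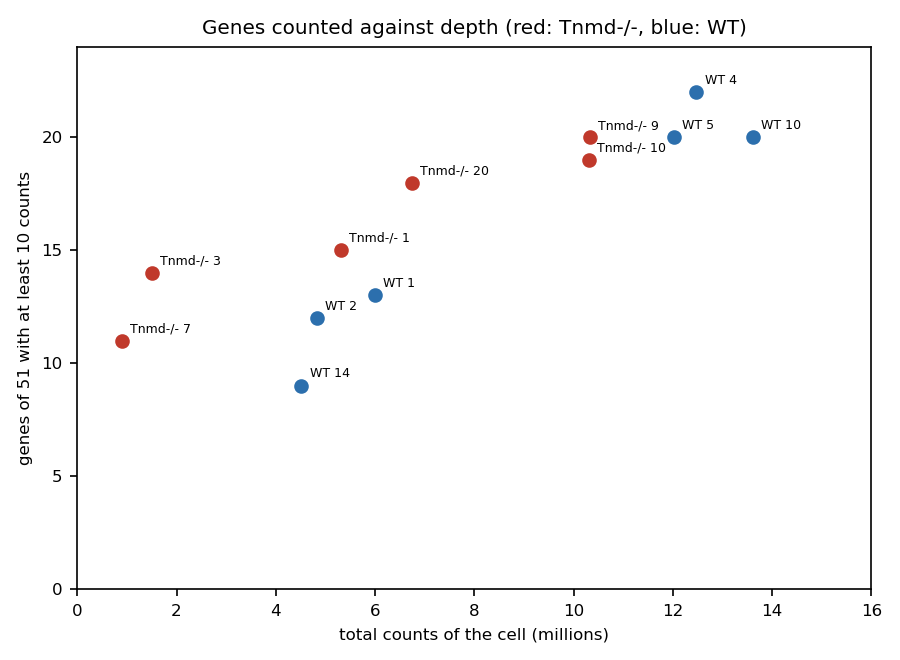
Number of the 51 genes with at least 10 counts in a cell against the cell's total counts, 1 point per cell, red for Tnmd-/- and blue for WT. The 6 deepest cells lie at 18 to 22 genes and the 6 shallowest at 9 to 15, in both genotypes.

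The summed level of the enzymes was 8827 CPM for Tnmd-/- and 11006 CPM for WT cells, or 0.299% to 1.65% of a cell's counts. It ranged from 2994 to 9888 CPM over the Tnmd-/- cells, with a median of 8846, and from 4590 to 16501 CPM over the WT cells, with a median of 8932. The ranges overlapped, and the highest sums were those of WT cells 5 and 10. The lowest was that of Tnmd-/- cell 3, and with mitochondrial genes left out of its total it was 6218 CPM. Peroxiredoxins had the steadiest family sum, 1002 to 3447 CPM, a 3.44-fold range over 12 cells. The sum of the glutathione peroxidases spanned a 23.5-fold range and that of thioredoxins and thioredoxin reductases 84.3-fold. The sum of the superoxide dismutases spanned 138-fold and that of the glutathione S-transferases with Gst symbols 1541-fold.

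**Figure D3:**
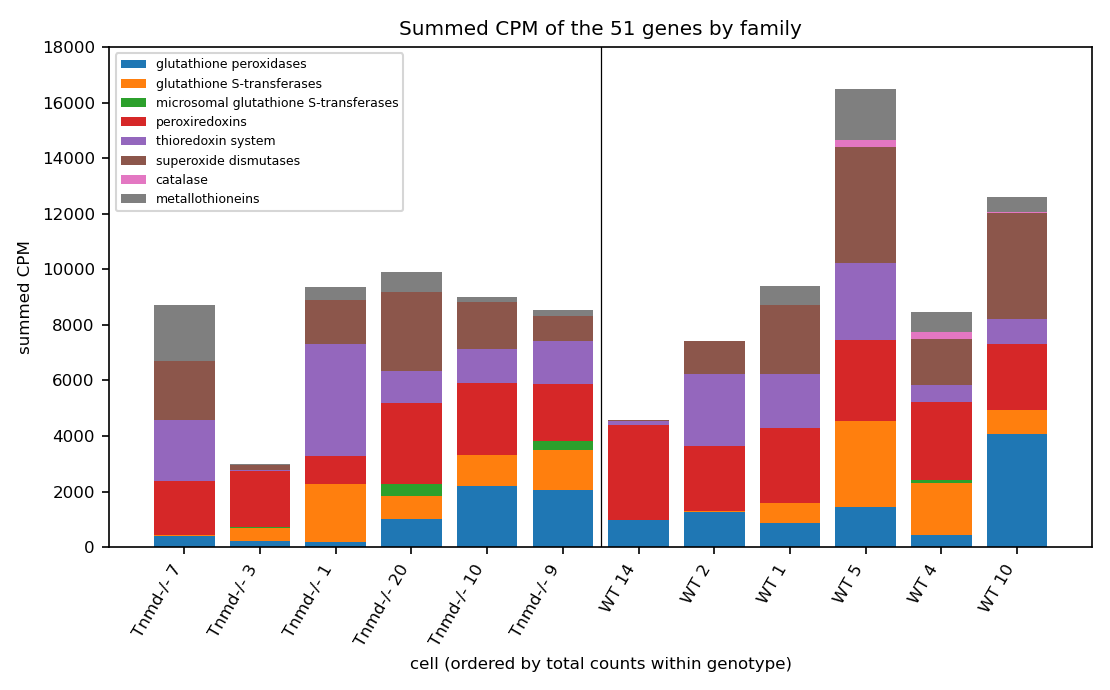
Summed CPM of the 51 genes in each cell, stacked by family, cells ordered by total counts within each genotype. The peroxiredoxin segment (red) is present in every cell between 1002 and 3447 CPM, whereas catalase (pink) shows in WT cells 4, 5 and 10 and the metallothioneins (grey) vary from 0.622 to 1991 CPM.

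Pooled over the 6 cells of a genotype, 4 of the 29 enzymes were at least 4-fold higher among Tnmd-/- cells (Gstm5, Gstz1, Gsta2 and Mgst1), while 32.6% of the 9768 genes with at least 20 counts were. Another 5 were at least 4-fold lower (Cat, Gstp2, Gsto2, Gpx8 and Mt2), and 32.6% of all genes were. The other 20 lay within 4-fold. The median log2 ratio of Tnmd-/- over WT was −0.50, against 0.08 for all genes, and 11 were higher and 18 lower. This median turned to 0.30 without WT cell 5 and to 1.01 in the 6 shallowest cells, where that of all genes was 0.58. Both shares of large ratios were below those of all genes. Among genes with 10 or more counts in 6 or more cells, 17 of the enzymes were left, of which 0 were 4-fold higher and 1 (Mt2) was lower, and 7.57% and 8.12% of the 1835 such genes were. In none of the 29 did the CPM ranges of the genotypes separate, against 2 genes (0.0205%) in each direction among all 9768. A single cell held over 50% of a gene's counts for 15 of the 28 enzymes with counts among Tnmd-/- cells and for 17 of 28 among WT cells. The same share was not computed over all genes, so whether the enzymes differ from other genes in it is not known. Of all genes counted in any cell, 42.0% were counted in 1 cell only, against 2 of the 29 enzymes (6.90%).

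**Figure D4:**
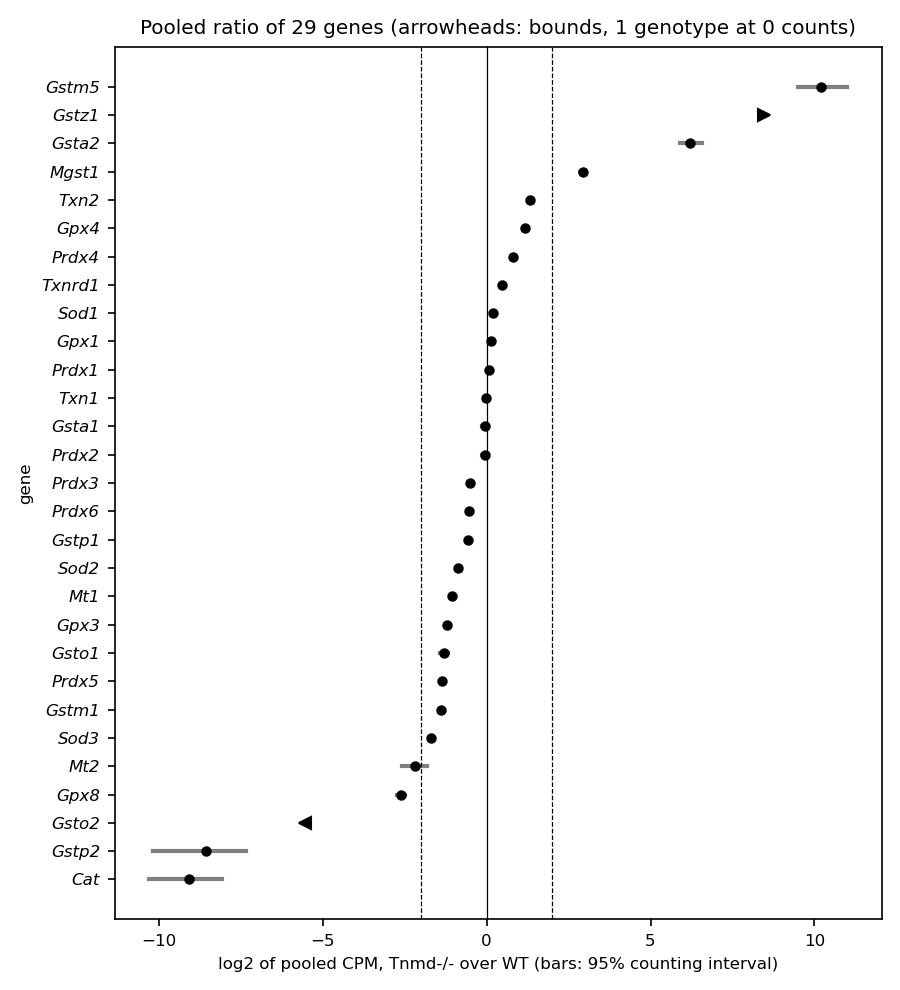
Pooled log2 ratio of CPM, Tnmd-/- over WT, for the 29 counted genes, with 95% counting intervals as bars and arrowheads for genes at 0 counts in 1 genotype, whose value is a bound. Dashed lines mark 4-fold. Gstm5 (10.19) and Cat (−9.07) lie at the ends, and 20 genes lie between the dashed lines.

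Thioredoxin was the highest of these genes by level per length. Txn1, the cytosolic disulphide reductase, averaged 1188 CPM per kilobase of exon over the 12 cells, followed by Mt1 with 491, Prdx1 with 382, Gpx1 with 362, Gstp1 with 300, Gpx3 with 271 and Sod1 with 247 CPM per kilobase. Lengths are of all annotated exons together, so genes with long alternative exons are set low on this scale.

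Superoxide dismutases were counted in every cell through Sod1. Sod1, the cytosolic copper and zinc enzyme, had 14.6 to 2112 CPM among Tnmd-/- cells (median 906) and 29.2 to 2488 CPM among WT cells (median 902), with a pooled log2 ratio of 0.19 (0.17 to 0.21) that turned to −0.09 with DESeq2 size factors, to −0.14 without WT cell 4 and to a negative value in the 6 shallowest cells, and was 0.62 in the 6 deepest. Sod3, which is secreted and binds the extracellular matrix, ran from 29.1 to 997 CPM (median 246) and from 0.664 to 2931 CPM (median 586). Its 3 highest values, 2931, 2519 and 997 CPM, were those of WT cells 10 and 5 and of Tnmd-/- cell 1. The pooled log2 ratio of Sod3 was −1.70 (−1.73 to −1.68), and it was 3.17 in the 6 shallowest cells, where WT cells 1 and 14 held 12 and 3 counts. Sod2, the mitochondrial manganese enzyme, had 574 and 561 CPM in WT cells 4 and 5 and at most 0.443 CPM in the other WT cells, but 3.32 to 229 CPM among Tnmd-/- cells (median 54.3). So Sod2 was present at 10 counts or more in 4 Tnmd-/- and 2 WT cells, although its pooled log2 ratio was −0.89 (−0.94 to −0.85). That ratio was −0.23 without WT cell 4 and turned to 1.94 as a difference of mean log2(CPM + 1) and to 6.47 in the 6 shallowest cells. Per length, Sod1 led in 7 cells and Sod3 in 5.

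Catalase, the peroxisomal enzyme that splits hydrogen peroxide, was counted in 3 WT cells and in no Tnmd-/- cell. Cat (chr2:103453849-103485160) had 3103, 2967 and 497 counts in WT cells 4, 5 and 10, or 249, 247 and 36.5 CPM, and 0 counts in WT cells 1, 2 and 14. The 6 Tnmd-/- cells held 0 to 2 counts each, 8 in all, with at most 1.33 CPM. Over pooled counts the log2 ratio was −9.07 (−10.29 to −8.09). The 3 WT cells with Cat were the 3 deepest of the 12, and the part of depth in this pattern was not tested. In the 6 deepest cells the log2 ratio was −10.20, and in the 6 shallowest, with 4 counts in all of them, all in Tnmd-/- cells, it was a bound of 1.41. Among all genes, 1.89% were counted in at least 3 WT cells and in no Tnmd-/- cell, and of the 29 enzymes Cat and Gstp2 were. Cat shared no exon base and no run of 100 bases with another gene.

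The glutathione peroxidase with the highest level differed from cell to cell. Gpx1, the cytosolic selenoenzyme, ran from 6.65 to 1226 CPM among Tnmd-/- cells (median 550) and from 0.829 to 1360 CPM among WT cells (median 291). Its pooled log2 ratio was 0.13 (0.11 to 0.15), and −0.14 with DESeq2 size factors, within −0.93 to 0.75 under all 21 alternatives. Gpx3, the secreted plasma form, ran from 0.188 to 779 CPM (median 120) and from 0.0832 to 2424 CPM (median 420). Its highest values were in WT cells 10 (2424 CPM), 2 (1232) and 14 (800), while WT cells 4 and 5 held 9 counts and 1 count. The pooled log2 ratio of Gpx3 was −1.20 (−1.23 to −1.17) and became 0.50 without WT cell 10, which held 77.1% of its WT counts.

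Gpx4, the enzyme that reduces lipid peroxides in membranes, was counted in all 6 WT cells (32.5 to 584 CPM, median 127) and in 4 of 6 Tnmd-/- cells (0 to 703 CPM, median 156). Its pooled log2 ratio was 1.17 (1.13 to 1.21), 0.52 without Tnmd-/- cell 10, −1.33 in the 6 shallowest cells and −1.16 as a difference of mean log2(CPM + 1). Of the runs of 100 bases in its transcript, 48.4% also occur in another gene, mainly the pseudogene Gpx4-ps2, and reads that fit both were not counted. Gpx8, a peroxidase of the endoplasmic reticulum, had 5172 of its 5178 WT counts in WT cell 10 and 545 of its 552 Tnmd-/- counts in Tnmd-/- cell 9, with a log2 ratio of −2.62 (−2.75 to −2.50). Per length, Gpx1 led the family in 6 cells, Gpx3 in 4 and Gpx4 in 2.

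Peroxiredoxins were counted in every cell through Prdx1. Prdx1, the main cytosolic form, had 333 to 1668 CPM among Tnmd-/- cells (median 1004) and 506 to 2237 CPM among WT cells (median 1046). Over pooled counts the log2 ratio was 0.07 (0.05 to 0.08), which became −0.21 with DESeq2 size factors and lay between −0.88 and 0.50 under all 21 alternatives, and the ranges of the genotypes overlapped over most of their width. Per length, Prdx1 led the family in 8 cells, Prdx5 in 2, Prdx6 in 1 and Prdx4 in 1. In the 4 cells that Prdx1 did not lead, the leading member made up 35.4% to 87.2% of the family's summed level per length, which was Prdx4 with 87.2% in Tnmd-/- cell 3, Prdx6 with 77.8% in WT cell 14, and Prdx5 with 59.7% in WT cell 5 and 35.4% in WT cell 10.

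Prdx6, which has a single catalytic cysteine and uses glutathione, was counted in all 6 Tnmd-/- cells (7.31 to 1140 CPM, median 310). In the WT cells it was split, with 2920, 982 and 919 CPM in cells 14, 4 and 10 and 0.250 to 1.04 CPM in cells 5, 1 and 2. The pooled log2 ratio was −0.53 (−0.56 to −0.51), −0.04 without WT cell 14 and −1.07 without Tnmd-/- cell 20, but 1.85 as a difference of mean log2(CPM + 1), which weighs cells equally. Prdx5, found in mitochondria, peroxisomes and cytosol, had 0.188 to 526 CPM among Tnmd-/- cells (median 36.8) and 1.33 to 1719 CPM among WT cells (median 377), for a log2 ratio of −1.37 (−1.41 to −1.34). It moved to −0.45 without WT cell 5 and was below 0 under all 21 alternatives. Prdx5 shares 19.1% of its exon bases with Trmt112 on the opposite strand, which had 982 and 1007 counts in Tnmd-/- cells 9 and 20 and 2262 to 3174 in WT cells 4, 5 and 10.

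Prdx4, the form of the secretory pathway, was counted in 3 cells of each genotype, namely at 1679, 382 and 186 CPM in Tnmd-/- cells 3, 20 and 9 and at 309, 142 and 20.1 CPM in WT cells 10, 4 and 2. Over pooled counts the log2 ratio of 0.81 (0.76 to 0.86) was above 0 under all 21 alternatives and ranged from 0.06 to 5.65. The mitochondrial Prdx3 was high in Tnmd-/- cell 10 (241 CPM) and WT cell 5 (414 CPM), and so was the cytosolic Prdx2, with 154 and 213 CPM in the same cells. Each of them held at most 27.9 CPM in any other cell, and the pooled log2 ratios were −0.50 for Prdx3 and −0.06 for Prdx2.

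In the thioredoxin system, Txn1 had 22.6 to 2642 CPM among Tnmd-/- cells (median 966) and 41.0 to 2277 CPM among WT cells (median 1209), with a pooled log2 ratio of −0.03 (−0.05 to −0.01). Its ratio lay between −0.40 and 0.52 under all 21 alternatives. Txnrd1, the selenoenzyme that reduces it, was counted in all cells at 24.6 to 382 CPM (median 120) and 46.1 to 322 CPM (median 109), with a pooled log2 ratio of 0.47 (0.42 to 0.51) that was 1.10 without WT cell 5 and turned to −0.26 as a difference of mean log2(CPM + 1). Txn2, the mitochondrial thioredoxin, was all or nothing, with 1010, 367 and 277 CPM in Tnmd-/- cells 1, 9 and 10 against 0.148 to 4.48 CPM in the other 3. In the WT cells it reached 35.2 to 267 CPM in cells 2, 4, 5 and 10 and at most 1.34 CPM in cells 1 and 14. The pooled log2 ratio of Txn2 was 1.32 (1.28 to 1.37), 0.71 without Tnmd-/- cell 1, and −0.10 as a difference of mean log2(CPM + 1).

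In the mu class of glutathione S-transferases, 7 of the 12 cells had 10 or more counts of only Gstm1 or only Gstm5, 2 had both and 3 had neither. Gstm5 (chr3:107895821-107898686) had 9274, 1560 and 1419 counts in Tnmd-/- cells 9, 10 and 20, or 897, 151 and 210 CPM. In the other 3 Tnmd-/- cells it held 0 to 1 count and in the 6 WT cells 0 to 8 counts, 16 in all. Over pooled counts the log2 ratio was 10.19 (9.49 to 11.00), 8.65 without Tnmd-/- cell 9 and 11.74 in the 6 deepest cells, while it was −2.47 in the 6 shallowest, where 12 counts remained. Thus all 3 deep Tnmd-/- cells held Gstm5 and none of the 3 deep WT cells did, although the ranges of the 6 cells overlapped. Among all genes, 0.962% were counted in at least 3 Tnmd-/- cells and in no WT cell, and of the 29 enzymes Gstm5 alone was. Gstm5 shared no run of 100 bases with other transcripts, and 13.9% of its exon bases lie opposite 4933431E20Rik, which had 0 counts.

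Gstm1 (chr3:108012255-108017973) was counted in 4 cells of each genotype. It had 0.890 to 742 CPM among Tnmd-/- cells (median 16.3) and 0 to 776 CPM among WT cells (median 537). WT cells 1, 4, 5 and 10 held 376 to 776 CPM and WT cells 2 and 14 held 1 count and 0. The pooled log2 ratio of Gstm1 was −1.39 (−1.43 to −1.36), −2.37 without Tnmd-/- cell 1 and 0.92 in the 6 shallowest cells. Of the counts of Gstm1 and Gstm5 together, Gstm5 made up 99.2% and 99.6% in Tnmd-/- cells 9 and 20, 35.1% (33.7 to 36.6) in Tnmd-/- cell 10, and 0 of 3942 counts in Tnmd-/- cell 1, which allows up to 0.0935%. In WT cells 4, 5 and 10 it made up 0.0196% to 0.0229%. So each of these cells but Tnmd-/- cell 10 held almost only one of the genes, which have exon lengths of 1278 (Gstm5) and 1473 (Gstm1) bases.

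The pi class genes Gstp1 and Gstp2 lie side by side on chromosome 19. Gstp1 (chr19:4035407-4037985) had 8.96 to 641 CPM among Tnmd-/- cells (median 515), with 494 to 641 CPM in cells 1, 9, 10 and 20. In the WT cells it reached 2017, 919 and 382 CPM in cells 5, 4 and 10 and 0.334 to 2.49 CPM in the other 3 (median 192). Its pooled log2 ratio was −0.57 (−0.60 to −0.54), 0.36 without WT cell 5 and 8.41 in the 6 shallowest cells. Gstp2 (chr19:4040285-4046023) had 2163, 537 and 195 counts in WT cells 5, 4 and 1, or 180, 43.1 and 32.5 CPM. The other 3 WT cells had 0, and the Tnmd-/- cells had 5 counts in all. Over pooled counts the log2 ratio of Gstp2 was −8.57 (−10.19 to −7.35) and lay between −9.92 and −2.69 under all 21 alternatives.

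Gstp2 made up 4.47% (4.11 to 4.86) of the counts of both pi genes in WT cell 4 and 8.19% (7.86 to 8.53) in WT cell 5, but almost all of them in WT cell 1, where Gstp2 had 195 counts and Gstp1 had 2. In Tnmd-/- cells 1, 9, 10 and 20, with 3330 to 5825 Gstp1 counts, it made up at most 0.0300%. These genes share 52.8% (Gstp1) and 63.5% (Gstp2) of their runs of 100 bases with other genes, chiefly with each other, and reads that fit both were not counted, so the shares rest on the bases that differ.

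**Figure D5:**
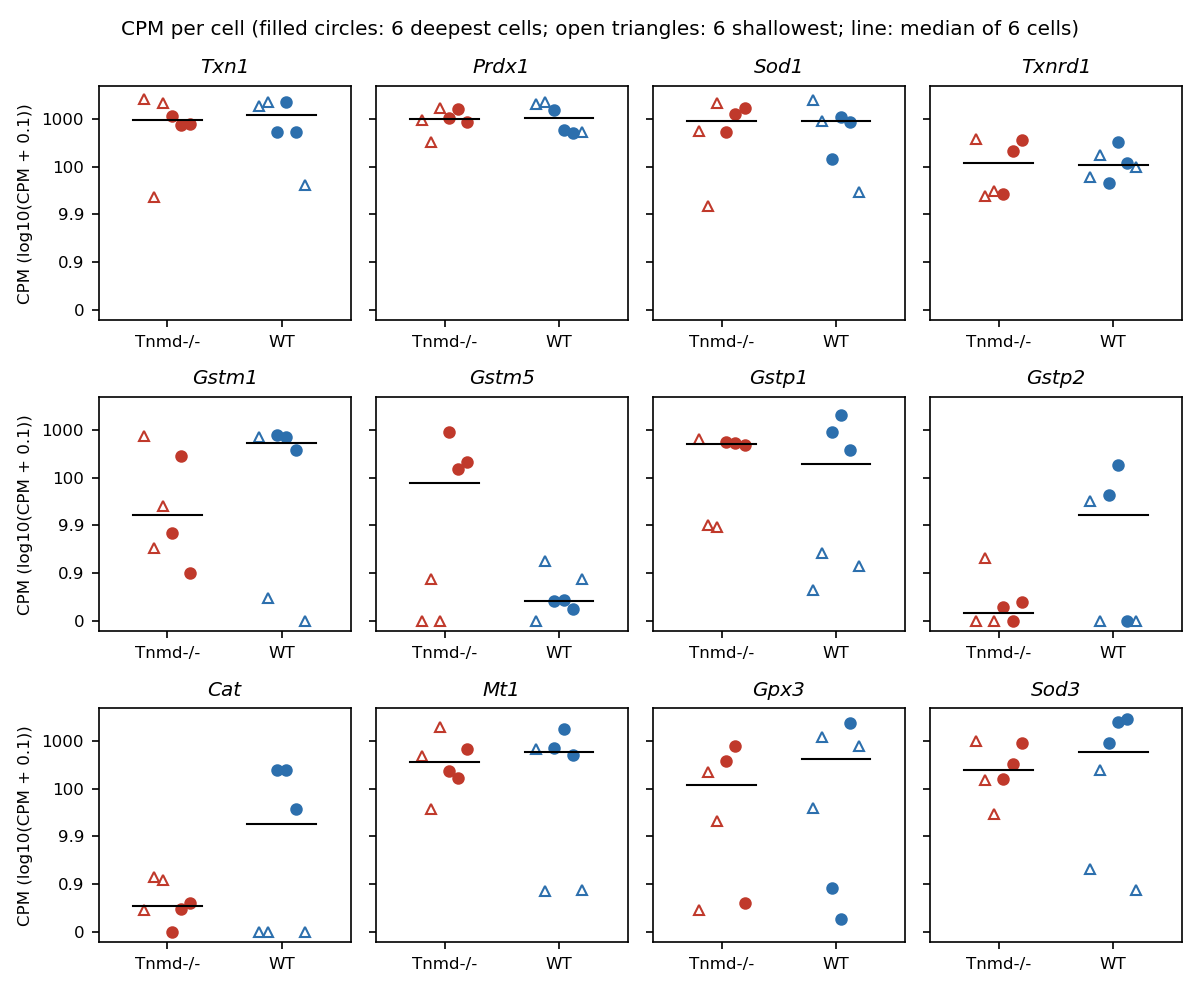
CPM of 12 of the genes in each cell on a log10(CPM + 0.1) axis, Tnmd-/- in red and WT in blue, with filled circles for the 6 deepest and open triangles for the 6 shallowest cells and a line at the median of 6 cells. Gstm5 is above 100 CPM in the 3 deep Tnmd-/- cells (151 to 897 CPM) and below 2 CPM in every WT cell, and Cat is above 30 CPM in the 3 deep WT cells and at most 1.33 CPM in every Tnmd-/- cell.

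The alpha class genes were seen in few cells. Gsta2 had all of its 3747 Tnmd-/- counts in cell 1, or 706 CPM, and 77 counts among WT cells, with a log2 ratio of 6.21 (5.89 to 6.56). Gsta1 had 1542 counts in Tnmd-/- cell 10, 62 in Tnmd-/- cell 1, and 811 and 1724 counts in WT cells 4 and 5, with a log2 ratio of −0.05 (−0.14 to 0.04). Gsta2 made up 98.4% of the counts of both in Tnmd-/- cell 1 and 0 of 1542 in Tnmd-/- cell 10 (up to 0.239%). Gsta1 shares 81.8% and Gsta2 35.0% of their runs of 100 bases with other genes, among them Gm3776, which had 1878 counts.

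Of the remaining transferases, Gstz1 (the zeta class, which acts in tyrosine breakdown) had 685 of its 687 counts in Tnmd-/- cell 3 and 0 among WT cells, at least a log2 ratio of 8.45 against 3 counts in the sum. That cell was also the one with 51.8% mitochondrial counts and with Fabp4, and the part of either in the value was not tested. Gsto2 had its 213 counts in WT cell 2, a bound of −5.54 on the log2 scale, and Gsto1 had 640 counts in Tnmd-/- cell 20 and 1050 and 1353 in WT cells 4 and 10. The microsomal Mgst1, which also reduces lipid peroxides, had 304 and 437 CPM in Tnmd-/- cells 9 and 20 and 12.6 CPM in cell 3, and 96.4 CPM in WT cell 4. It was at 0 to 1.12 CPM in the other 8 cells. Its pooled log2 ratio was 2.94 (2.85 to 3.03) and was above 2 under all 21 alternatives, from 2.23 to 9.63, the latter without WT cell 4.

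The metallothionein counts were mostly those of Mt1. Mt1 (chr8:94179082-94180327) had 36.6 to 1991 CPM among Tnmd-/- cells (median 360) and 0.622 to 1811 CPM among WT cells (median 599). WT cells 2 and 14 held 3 counts each and the other 4 WT cells 519 to 1811 CPM, so Mt1 was counted in all 6 Tnmd-/- cells and in 4 WT cells. The pooled log2 ratio was −1.06 (−1.09 to −1.03), −0.37 without WT cell 5, but 1.61 as a difference of mean log2(CPM + 1) and 1.11 in the 6 shallowest cells. Mt2 (chr8:94172664-94173568) had 0 to 5.49 CPM (median 0.575) and 0 to 25.4 CPM (median 4.33), with a log2 ratio of −2.19 (−2.59 to −1.81) that lay between −4.59 and −0.94 under all 21 alternatives and was −0.94 without WT cell 5. Mt2 made up 0.929% (0.851 to 1.01) of the counts of both over all cells, and 23 of 26 counts (88.5%) in WT cell 14. The exons of Mt2 share 73.5% of their bases with Gm45774 on the opposite strand, which had 0 counts, and reads that fall in exons of 2 genes may not have been assigned to either. The share of Mt2 therefore cannot be read as its share of transcripts.

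Genes that feed these enzymes were described by the same rule, but the ratios of this and the following lists were not run under the alternatives. Of the 18 genes of glutathione synthesis and recycling, 12 had at least 20 counts, 4 of them at least 4-fold higher and 2 lower among Tnmd-/- cells (32.6% and 32.6% of all genes), with a median log2 ratio of 0.26. Slc7a11, the cystine importer, had a median of 492 CPM (0 to 2625) for Tnmd-/- and 1.37 CPM (0 to 512) for WT cells, with a pooled log2 ratio of 2.13 (2.10 to 2.16). Gss, the glutathione synthetase, was counted in 2 Tnmd-/- cells and 1 WT cell (log2 ratio 2.97), and Gclm, a subunit of the rate-limiting ligase, in 4 and 3 cells (0.89). Gsr, the glutathione reductase, was counted in 1 Tnmd-/- and 4 WT cells (−0.69), and Glrx3 had a log2 ratio of −0.43.

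Of the 21 regulators and targets of Nrf2, 20 were counted, 0 of them at least 4-fold higher and 7 lower among Tnmd-/- cells, where 32.6% of all genes were higher and 32.6% lower. Of the 20, 3 had a higher and 17 a lower pooled level, against 4986 higher and 4782 lower of all 9768 genes. The median log2 ratio was −1.03, against 0.08 for all genes. Among the 7 lower ones were Keap1 (−4.20) and Bach1 (−2.20), which act against Nrf2, as well as Nfe2l2. The median therefore gives no direction of Nrf2 activity, which was not tested. Nfe2l2, which encodes Nrf2, was counted in 5 cells of each genotype, with 4.75 to 62.9 CPM (median 9.31) for Tnmd-/- and 0.443 to 411 CPM (median 270) for WT cells. The ranges overlapped, and the pooled log2 ratio was −3.70 (−3.81 to −3.60). Taldo1 and Abcc1 had log2 ratios of −2.69 and −3.96, and Tkt, Mafk and Me1 of 0.84, 0.62 and 0.01. Single cells weighed heavily in these. Tnmd-/- cell 10 held 97.6% of the Tnmd-/- counts of Abcc1 and 97.5% of those of Me1. WT cell 4 held 84.9% of the WT counts of Abcc1, and WT cell 10 held 93.8% of those of Mafk.

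Of 11 thioredoxin partners and methionine sulfoxide reductases, 8 were counted, with 1 at least 4-fold higher and 3 lower (all genes 32.6% and 32.6%) and a median log2 ratio of 0.49. Txnrd3 (1.80), Txnip, an inhibitor of thioredoxin (1.58), and Txnl1 (1.34) had the largest positive log2 ratios among those counted in at least 3 cells, and Srxn1, which repairs overoxidized peroxiredoxin, had −0.35. Of 8 genes of metal handling, 6 were counted, with 2 at least 4-fold higher and 3 lower (all genes 32.6% and 32.6%), and the median of −2.22 lay between 3 genes with a positive and 3 with a negative ratio. The copper exporter Atp7a was counted in 3 WT cells and in no Tnmd-/- cell (5 and 2950 counts, −8.60), Ccs, the copper chaperone of Sod1, had −4.75 and the metal importer Slc39a14 had −4.48. Mtf1, the factor that binds the metal response element, had 2.26 with 99.8% of its Tnmd-/- counts in cell 1, and Atox1, another copper chaperone, had 0.03. Of 8 genes of selenoprotein synthesis, 6 had at least 20 counts, 2 at least 4-fold higher and 2 lower (all genes again 32.6% each), with Sephs2 at 0.99 and Secisbp2 at −2.72. Of 11 sources of superoxide and peroxide, 2 had at least 20 counts, both with positive ratios, among them Cyba at 1.68.

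Genes that respond to digestion of tissue were present in both genotypes. All 12 immediate early and dissociation genes were counted, 1 at least 4-fold higher (Fosb, 5.82) and 2 lower (Nr4a1, −4.69, and Junb, −2.90), both smaller shares than the 32.6% of all genes in either direction, with a median log2 ratio of −0.59. Egr1 had 1.27, Zfp36 1.20 and Hspa1b −1.87. Their summed level was 24.6 to 5959 CPM among Tnmd-/- cells, highest in cell 7, which also had the highest Mt1 level (1991 CPM), and 231 to 4557 CPM among WT cells. The part of the digestion in the levels of the antioxidant enzymes was not tested.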

How the data were processed

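Deposited by the authors was 1 raw count per gene and cell for 12 single cells, from reads without molecular identifiers. Per their methods, reads were trimmed (BBDuk 38.84), those that mapped to anything but mouse were discarded (BioBloom Tools 2.0.13), the rest were aligned to GRCm38 (STAR 2.5.1b, Ensembl 96) and unique reads in exons were counted (featureCounts of Subread 2.0.0). FastQC 0.11.9 and MultiQC 1.9 served quality control. The strand setting is not given in the sources used here. The study corrected for RNA degradation before its own tests, but the counts used here carry no such correction.

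The members and gene lists were chosen with earlier results of these data known. Counts were summed by genotype (35088506 and 53439236) and divided by the summed totals to give CPM. Log2 ratios had exact Clopper-Pearson counting intervals at 95%, which cover counting error only, since amplified reads are not independent molecules. Where a genotype had 0 counts, 3 counts in its sum (0.0855 and 0.0561 CPM) were used in their place and the ratio is a bound, and genes at 3 or fewer counts in both genotypes got none. Ratios used genes with at least 20 counts over 12 cells. A gene was called counted in a cell at 10 counts, and a ratio large at 4-fold. No animal is named for any cell, so no test was run.

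Named were members with 10 or more counts in 6 or more cells, with genotype ranges that did not overlap (0 members) or with 1000 CPM or more in any cell, the 5 largest ratios in each direction among members with 50 CPM or more, and 10 or more counts in 3 or more cells, in the higher genotype, and Gstm5. Members outside this rule (Gpx8, Prdx2, Prdx3, Gsta1, Gsta2, Gsto1, Gsto2 and Gstz1) are given by counts or CPM of the cells that held them, most of them with the pooled ratio. At most 3 genes per pathway list and direction were named, among those counted in at least 3 cells, and Keap1 and Bach1 were added. Coordinates came from GENCODE M21, in which 99.9% of the 55418 symbols had the same exon length. Alternatives were equal weights for cells, mean log2(CPM + 1), TMM factors of edgeR 4.0.16, size factors of DESeq2 1.42.0, totals without mitochondrial genes or the 50 genes with most counts, the 6 deepest and 6 shallowest cells, other filters and pseudocounts, thinning to 892713 counts and leaving out each cell. Scripts ran in Python 3.11.15 with scipy 1.17.1 and in R 4.3.3. The ratio and its interval were also run on simulated pooled counts that held counting error only. Spread between cells was not simulated, so that run cannot check the ratios against it.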

Additional observations from a re-analysis of the deposited data

Results flagged for a closer look

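In 42 groups of 6 cells, 1 per named gene and genotype, 11 had a cell apart from the others by a gap above Dixon's critical value at the 95% level. Chance flags about 1 in 20 groups of normally spread values, a rate that does not hold for CPM of single cells that lie mostly near 0 or very high, so the number of flags is a description only. High values set the cell apart in each. In the Tnmd-/- cells these were Prdx4 in cell 3 (1679 CPM, next 382), Gstm5 in cell 9 (897 CPM, next 210), Mt1 in cell 7 (1991 CPM, next 689), Txn2 in cell 1 (1010 CPM, next 367) and Gstp2 in cell 3 (1.99 CPM, or 3 counts). In the WT cells they were Prdx6 in cell 14 (2920 CPM, next 982), Mgst1 in cell 4 (96.4 CPM, next 0.886), Gpx4 in cell 1 (584 CPM, next 167), and, all in cell 5, Mt2 (25.4 CPM, next 5.09), Gstp2 (180 CPM, next 43.1) and Prdx5 (1719 CPM, next 615).

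A pair of pseudogenes left out of the enzymes held counts. Gpx4-ps2 had 156 counts in 9 cells, 83 of them in Tnmd-/- cell 9, and Gstm2-ps1 had 30 counts in 5 cells.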

How the results depend on the processing

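The count of enzymes at least 4-fold higher in the Tnmd-/- cells was 4, that of those lower 5, and their median log2 ratio −0.50. As differences of mean log2(CPM + 1) these were 2, 3 and −0.08. In the 6 deepest cells 2 of 27 were higher and 7 lower with a median of −0.63 (all genes 30.4%, 34.4% and −0.03). In the 6 shallowest 9 of 26 were higher and 7 lower with a median of 1.01 (all genes 40.1%, 32.9% and 0.58), while the ratio of Cat turned to 1.41 and that of Gstm5 to −2.47. The median was −0.43 with the mean of the cells' CPM, −0.76 with TMM factors, −0.77 with DESeq2 size factors, −0.46 without mitochondrial genes, −0.54 without the 50 genes with most counts, −0.49 with 1 CPM added and −0.47 with 5 CPM, when 3 were lower. TMM and DESeq2 factors moved the median of all genes from 0.08 to −0.18 and −0.19. Leaving out each cell gave 3 to 6 higher, 4 to 8 lower (8 without Tnmd-/- cell 10) and a median of −0.70 to 0.30, which was above 0 only without WT cell 5. Chosen after seeing the data, leaving out Tnmd-/- cells 3 and 7 gave a median of −0.42, and requiring 10 counts in 6 of 12 cells gave 0 higher, 1 lower and a median of −0.53. Of 21 named enzymes, 5 (Prdx4, Mgst1, Mt2, Gstp2 and Prdx5) kept the sign of their ratio under all 21 alternatives. The TMM, DESeq2, mitochondrial and top 50 settings shift every pooled ratio by the same amount (−0.26, −0.27, 0.04 and −0.04). They could therefore not have turned any of these 5. The number counted in 10 or more cells, 9, was 15 at a minimum of 1 count. No enzyme's genotype ranges separated under any alternative run: 0 to 0 as each cell was left out. No paired analysis was possible because the result comes from no test and the replicate numbers only name picked cells. At 0 counts in the summed cells, a level of up to 0.0339 CPM (3 counts in the sum) is allowed. This limit covers counting error only.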
